A study of Homo sapiens with 2 samples.

Results

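Desmosomes are the junctions that tie the keratin filaments of neighbouring epithelial cells together. The 10 genes described here encode their parts: the linker desmoplakin (DSP), the plakophilins PKP1 to PKP4, the desmosomal cadherins DSG2, DSG3, DSC2 and DSC3, and the membrane protein PERP. They were read by 28 of the 54675 probe sets of an expression array, namely every probe set whose only platform symbol is one of the 10 names. In HCC15 cells given CTNNB1 siRNA, 0 of the 12 desmosome probe sets with a usable signal differed from control siRNA by 2-fold or more. Of all probe sets with a usable signal, only 3.42% were 2-fold higher and 2.21% lower. A count of 0 among 12 therefore says little about desmosome genes in particular. The plakophilin gene PKP4 was 1.51-fold to 1.74-fold higher on 4 probe sets in the deposited values, and level on its dimmest one. For comparison, 14.4% of all probe sets with a usable signal were at least 1.5-fold higher. Under several other scalings of the arrays, the brightest PKP4 probe set was below 1.5-fold. DSP, PKP2 and PKP3 differed little in the deposited values. The cadherins DSC3 and DSG3 went opposite ways, but at dim signals where such differences were common over the whole array.

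In a desmosome, desmogleins and desmocollins hold the neighbouring cell, and their tails bind plakoglobin and plakophilins, armadillo-repeat proteins related to beta-catenin. Desmoplakin links this plaque to keratin. DSG2, DSC2 and PKP2 serve simple as well as stratified epithelia, whereas DSG3, DSC3 and PKP1 are known from stratified and squamous epithelium. Beta-catenin, the CTNNB1 product, sits in adherens junctions and, in the nucleus, switches on Wnt target genes through TCF and LEF factors.

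HCC15 is an established human lung cancer line with a squamous label, and the series title speaks of NSCLC with mutated CTNNB1. The group with CTNNB1 siRNA was 1 culture transfected with an siRNA against CTNNB1. The group with control siRNA was 1 culture whose siRNA target is not given, although its title carries the word Tax. Both were grown in RPMI 1640 with 5% fetal bovine serum, the labels give collection 48 h after transfection, and each was read on 1 array as total RNA. With 1 array a group there was no replicate check and no p-value, and all differences compare these cultures of 1 line. In bulk RNA, fewer cells that express a gene and less of its RNA per cell cannot be told apart.

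For CTNNB1, the brightest reading (201533_at) was 339 with CTNNB1 siRNA and 1224 with control siRNA, which is 27.7% of control. The other probe sets of CTNNB1 read 45.8 against 89.8 (1554411_at) and 118 against 130 (223679_at). All 5 epithelial markers (EPCAM, CDH1, KRT8, KRT18, KRT19) passed the signal filter, and their brightest probe sets summed to 23923 with CTNNB1 siRNA and 22336 with control siRNA. Of 8 squamous markers, SFN, S100A2 and SOX2 passed it, KRT5, KRT14, DSG3 and PKP1 did not, and TP63 was not analysed here; the 7 analysed summed to 5246 and 5711, nearly all from SFN. All 6 mesenchymal markers passed, with sums of 10826 and 9475 that are nearly all VIM (9603 and 8298), whereas the brightest COL1A1 probe set read 80.3 and 162 and that of FN1 111 and 150. The filter was also passed by 3 of 4 lung adenocarcinoma markers (NAPSA, SFTPB and SFTPC, but not NKX2-1), with far lower sums (437 and 349). SFTPC passed it only on 38691_s_at (191 and 107), and its other probe sets read at most 13.7 on either array. None of the analysed neuroendocrine (78.7 and 66.6) or leukocyte markers (31.1 and 67.2) passed. The part of these marker levels in the results below was not tested.

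Signals are MAS5 intensities on a linear scale. A probe set counted as usable, or entering, when its signals averaged at least 49.1, the median of all values of both arrays. Values below 13.8, the 25th percentile, were set to that floor before a ratio was taken, and a fold against it is a lower bound. All log2 ratios are CTNNB1 siRNA over control siRNA. Among the 22468 entering probe sets with 1 gene symbol, the median log2 ratio was 0.16, so a value of 0 lies slightly below the typical probe set. Among those averaging at least 209 it was 0.24, so a bright probe set stands lower against ones of like signal. As a measure of probe set error, probe sets of the same gene had a pooled SD of 0.42 in log2 ratio, 0.29 among bright ones (at or above 209, the 75th percentile) and 0.90 in the dim band from 13.8 to under 49.1. These SDs do not cover variation between cultures.

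Of the 28 desmosome probe sets, 12 entered, 8 lay in the dim band and 8 had a mean below 13.8. The entering ones read 6 genes: DSP, PERP, PKP2, PKP3, PKP4 and DSG2. No probe set of PKP1, DSG3, DSC2 or DSC3 entered. At 2-fold, 0 of 12 were higher and 0 of 12 lower, beside 3.42% and 2.21% of all entering probe sets. At 1.5-fold, 5 of 12 were higher (4 of PKP4 and 1 of DSG2) and 0 lower, beside 14.4% and 7.52% of all. Counted by gene, with the brightest entering probe set standing for the gene, 0 of 6 were past 2-fold either way, beside 2.29% of 12531 genes higher and 2.38% lower. With shares this small, the 2-fold counts of 0 among 12 probe sets and 6 genes say little about desmosome genes. At 1.5-fold 1 of 6 genes (PKP4) was higher and 0 lower, beside 11.2% and 7.61%. The median log2 ratio was 0.31 over the 12 probe sets and 0.02 over the 6 genes, beside 0.16 and 0.15 over everything that entered. Without the signal filter, 1 of all 28 probe sets was at least 2-fold higher (DSG3) and 2 lower (DSC3), beside 4.62% and 6.14% of 41097 probe sets, and 1 of 10 genes was higher and 1 lower, beside 3.65% and 6.43% of 19775 genes. The medians over entering probe sets and genes differ because PKP4 gives 4 of the 12 probe sets and only 1 of the 6 genes.

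**Figure D1:**
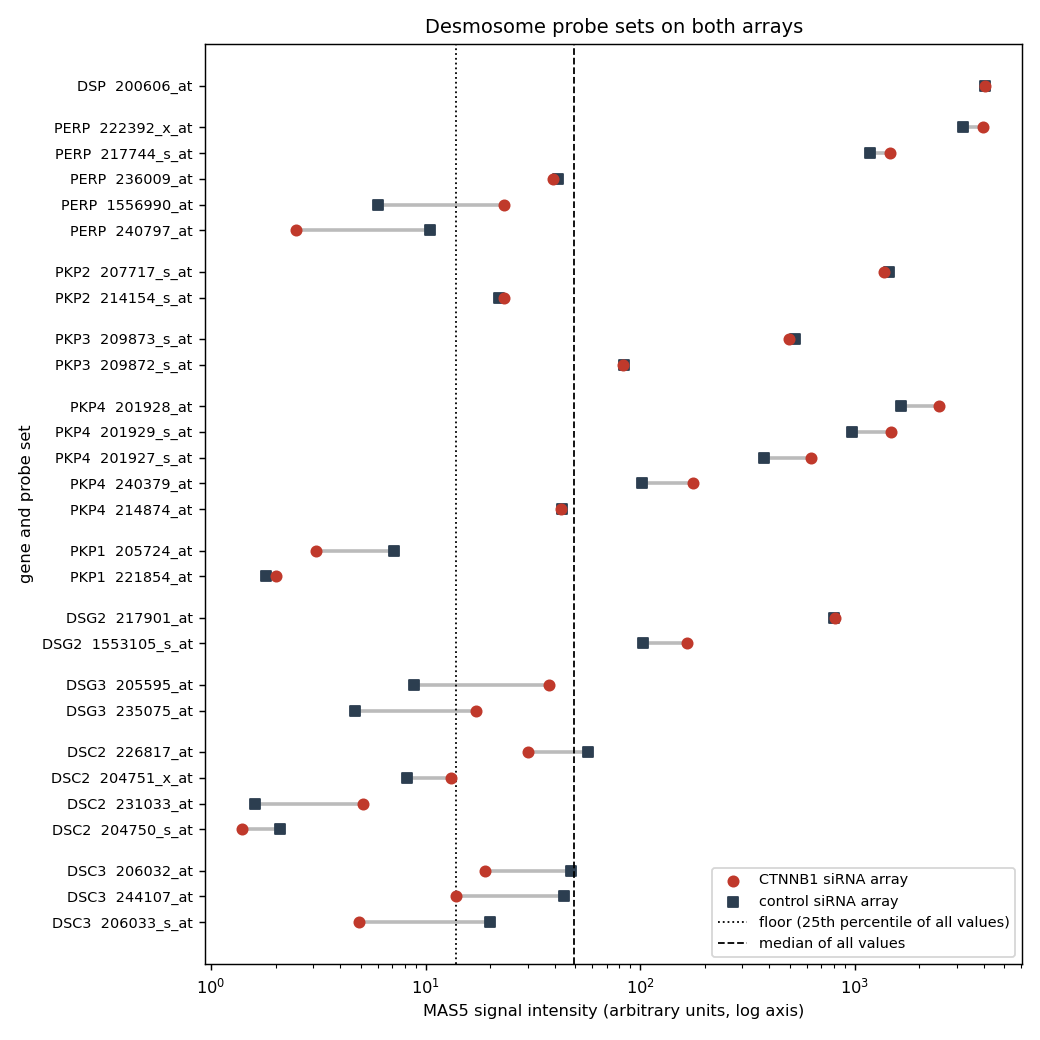
MAS5 signal of each of the 28 desmosome probe sets on the CTNNB1 siRNA array (circles) and the control siRNA array (squares), 1 array each, on a log axis; the dotted line is the floor of 13.8 and the dashed line the median of all values, 49.1. The 4 PKP4 probe sets right of the dashed line all have the circle on the right, and the probe sets of PKP1, DSG3, DSC2 and DSC3 lie at or near the left.

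DSP encodes desmoplakin, the obligate linker between the plaque and keratin. Its only probe set (200606_at) was the brightest of the 28 and read 4072 with CTNNB1 siRNA and 4055 with control siRNA. The log2 ratio was 0.01, and 63.6% of all entering genes had a ratio at least as high. Relative to the median of all entering probe sets it was -0.15, within the SD of 0.29 for bright probe sets.

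PERP is a small membrane protein of desmosomes that p53 and p63 can induce. Its bright probe sets had signals of 3969 against 3189 (222392_x_at) and 1456 against 1182 (217744_s_at), with CTNNB1 siRNA first. They gave log2 ratios of 0.32 and 0.30 and so lay 0.01 apart. Both arrays read PERP strongly, and the brightest probe set lay 0.16 above the median of all entering probe sets, within the bright probe set SD. The other PERP probe sets were dim and disagreed: 39.3 against 41.5 (236009_at), 23.1 against 6 (1556990_at) and 2.5 against 10.5 (240797_at).

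PKP2 and PKP3 encode plakophilins that cluster desmosomal cadherins and desmoplakin at the membrane. The bright PKP2 probe set (207717_s_at) read 1366 with CTNNB1 siRNA and 1453 with control siRNA, a log2 ratio of -0.09. The dim one (214154_s_at) read 23.3 and 21.9. PKP3 had 495 against 526 (209873_s_at) and 83.3 against 84.6 (209872_s_at), log2 ratios of -0.09 and -0.02. All of these differences were smaller than the probe set SD. Against all genes, PKP2 and PKP3 both stood below the middle, with 29.1% of genes at or below each. PKP1, the plakophilin of stratified epithelium, read 3.1 against 7.1 (205724_at) and 2 against 1.8 (221854_at), below the floor on both arrays, so no ratio is given.

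PKP4, also called p0071, is an armadillo protein found at desmosomes and at adherens junctions, and it had the highest ratio of the 6 entering genes. The brightest probe set (201928_at) read 2476 with CTNNB1 siRNA and 1645 with control siRNA, 1.51-fold higher. Probe set 201929_s_at read 1485 and 979, and 201927_s_at read 629 and 380. A dimmer one, 240379_at, read 177 and 102, 1.74-fold higher. The log2 ratios of these 4 ran from 0.59 to 0.79, a spread of 0.21 that is smaller than the probe set SD of 0.42. The fifth PKP4 probe set (214874_at) was just under the filter and read 43 and 43.5, no higher with CTNNB1 siRNA.

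By its brightest probe set PKP4 ranked 1378 from the top of 12531 genes, and 11% of genes had a ratio at least as high. Of the 1000 genes with 4 or more entering probe sets, 10 had every one of them at least 1.5-fold higher, which is 1%, and PKP4 is among these. That comparison was chosen after the PKP4 values were seen. The gap between PKP4 and the median of all entering genes, 0.44, was larger than the bright probe set SD of 0.29 and about the size of the SD over all entering probe sets. With the filter at the 75th percentile the median of all genes was 0.23, so PKP4 stood less far above genes of like signal. The 1.5-fold call of the brightest probe set depended on the scaling. Its log2 ratio was 0.31 after quantile normalization, 0.32 after loess and 0.37 with a common trimmed mean, below 1.5-fold in each, and 0.73 with a common median.

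**Figure D2:**
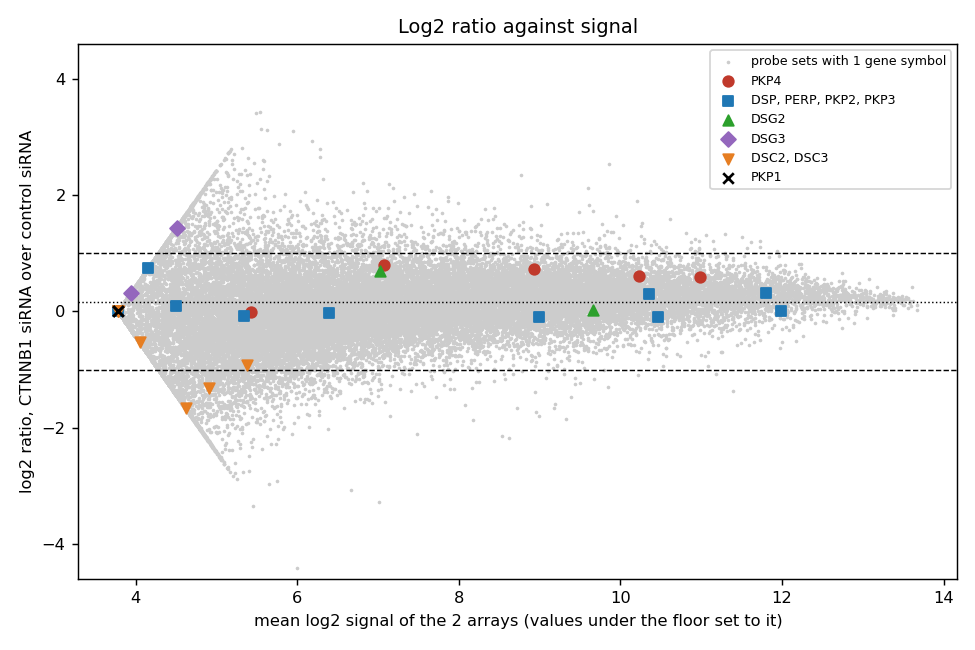
Log2 ratio (CTNNB1 siRNA over control siRNA) against mean log2 signal for all probe sets with 1 gene symbol (grey) and the 28 desmosome probe sets (coloured by gene); dashed lines mark 2-fold and the dotted line the median of entering probe sets, 0.16. The grey cloud widens to the left, where the DSC3 and DSG3 points lie. The 4 entering PKP4 probe sets sit in the upper part of the cloud at higher signals without reaching the dashed line. The dim PKP4 probe set lies near a log2 ratio of -0.02.

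Promoter windows of the members came from RefSeq, from 250 bases before to 50 after a gene's start, and 10 windows of 8 members matched. The windows of PKP2 and PKP3 were not used here. The core sequence that TCF and LEF factors recognise was searched on both strands as CTTTG followed by AT, AA, TT or TA. These 4 forms share their first letters, so no stretch counts for more than 1 of them on a strand. Of the 10 windows 1, that of DSG3, held a match, and 13.7% of 35093 windows of the same length did. The windows of PKP4, whose 4 entering probe sets moved together, and of DSG3 and DSC3, whose dim signals went opposite ways, are printed 5′ to 3′ along the gene's strand, with the match in capitals.
PKP4, first start (GRCh38.p14, chr2:158456702-158457001, plus strand): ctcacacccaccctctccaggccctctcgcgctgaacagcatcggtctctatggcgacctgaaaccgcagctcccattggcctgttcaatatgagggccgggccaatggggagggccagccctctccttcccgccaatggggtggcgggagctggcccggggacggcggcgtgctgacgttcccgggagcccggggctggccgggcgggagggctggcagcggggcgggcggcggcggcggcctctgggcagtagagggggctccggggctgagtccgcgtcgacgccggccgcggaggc
PKP4, second start (GRCh38.p14, chr2:158457643-158457942, plus strand): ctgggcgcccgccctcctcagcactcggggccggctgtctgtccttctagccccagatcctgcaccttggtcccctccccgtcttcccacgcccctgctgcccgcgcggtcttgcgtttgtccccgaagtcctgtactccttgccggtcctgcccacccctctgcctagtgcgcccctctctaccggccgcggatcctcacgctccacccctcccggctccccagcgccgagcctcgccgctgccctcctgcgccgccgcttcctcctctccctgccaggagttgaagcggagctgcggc
DSG3 (GRCh38.p14, chr18:31447491-31447790, plus strand): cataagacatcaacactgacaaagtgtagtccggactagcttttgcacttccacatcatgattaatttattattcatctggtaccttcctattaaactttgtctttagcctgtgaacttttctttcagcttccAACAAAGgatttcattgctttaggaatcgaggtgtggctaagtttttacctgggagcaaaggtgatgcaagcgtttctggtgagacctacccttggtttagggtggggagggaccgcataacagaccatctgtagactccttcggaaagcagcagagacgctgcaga
DSC3 (GRCh38.p14, chr18:31042693-31042992, minus strand): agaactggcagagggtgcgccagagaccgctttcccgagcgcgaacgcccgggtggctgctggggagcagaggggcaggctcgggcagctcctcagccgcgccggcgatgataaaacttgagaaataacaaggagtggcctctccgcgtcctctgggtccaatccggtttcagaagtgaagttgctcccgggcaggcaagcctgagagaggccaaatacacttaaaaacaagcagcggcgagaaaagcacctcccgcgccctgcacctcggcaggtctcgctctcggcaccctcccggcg
The capitals in the DSG3 window are the TT form read on the opposite strand and begin 117 bases before the gene's start. Both PKP4 windows are rich in G and C (74% and 71.7%, against a median of 58.7% over all windows), and the DSG3 window is the poorest of the 10 at 44%. A match of letters is a description and shows no binding.

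The desmosomal cadherin genes lie side by side on chromosome 18 in the order DSC3, DSC2, DSC1, DSG1, DSG4, DSG3 and DSG2. Of these 7, only DSG2, at one end, had entering probe sets. DSG2, the desmoglein of simple epithelia, read 815 with CTNNB1 siRNA and 798 with control siRNA on its bright probe set (217901_at), a log2 ratio of 0.03. The other (1553105_s_at) read 166 and 103, a log2 ratio of 0.69 and 1.61-fold higher. The gap between them was 0.66. The probe set SD of 0.42 describes 1 probe set around the mean of its gene, and a gap between 2 probe sets varies more. Only the dimmer probe set was past 1.5-fold, so that call for DSG2 depended on the probe set.

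DSG3, a desmoglein of stratified epithelium, read 37.5 with CTNNB1 siRNA and 8.8 with control siRNA on 205595_at, at least 2.72-fold higher. On 235075_at it read 17.2 and 4.7, at least 1.25-fold higher. Both control values were below the floor, and both CTNNB1 siRNA values were below the signal filter. In the dim band, 11% of all probe sets were at least 2-fold higher. The DSG3 ratios depend on the floor. With it at the 10th percentile they were 2.09 on 205595_at and 1.87 on 235075_at, and with it at the median of all values, above all 4 signals, they are 0 by construction. In the other 4 scalings 205595_at ran from 1.33 to 1.57.

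DSC3, the desmocollin of stratified epithelium, read 19 with CTNNB1 siRNA and 47.5 with control siRNA on 206032_at, a log2 ratio of -1.32. On 244107_at it read 13.9 and 44.1, a log2 ratio of -1.67. The third, 206033_s_at, read 4.9 and 19.9 and was at least 1.44-fold lower. All 3 were thus lower with CTNNB1 siRNA. In the dim band, however, 19.8% of all probe sets were at least 2-fold lower, and the probe set SD there was 0.90. Among 1823 genes with 2 or more probe sets whose brightest lay in that band, 12.6% had every probe set lower and 4.66% every probe set higher. In the other 4 scalings 206032_at ran from -1.54 to -1.12 and 244107_at from -1.78 to -1.44, past 2-fold lower in each. The CTNNB1 siRNA value of 244107_at lay just above the floor as deposited. With a common trimmed mean it fell below the floor, so the -1.78 is a bound. With the floor at the 10th percentile 206033_s_at had -2.02, and with it at the median, above all 6 signals, the DSC3 ratios are 0 by construction.

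DSC2, the desmocollin of simple epithelia, came nearest to the filter on 226817_at, with 30.1 against 57.1 and a log2 ratio of -0.92. Its other probe sets, 204751_x_at (13.2 and 8.2), 231033_at (5.1 and 1.6) and 204750_s_at (1.4 and 2.1), were below the floor on both arrays. DSC2 therefore had 1 probe set with a ratio, which did not reach 2-fold lower as deposited. It was -1.14 with a common trimmed mean, past 2-fold, between -0.79 and -0.76 in the other 3 scalings, and -0.22 with the floor at the median. With the floor at the 10th percentile the dimmer probe sets went the other way or stayed level. There 204751_x_at had 0.69, 231033_at 0.25 and 204750_s_at 0. No desmocollin had a usable signal on these arrays, which does not show that desmocollin RNA was absent, since no detection calls were used here.

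**Figure D3:**
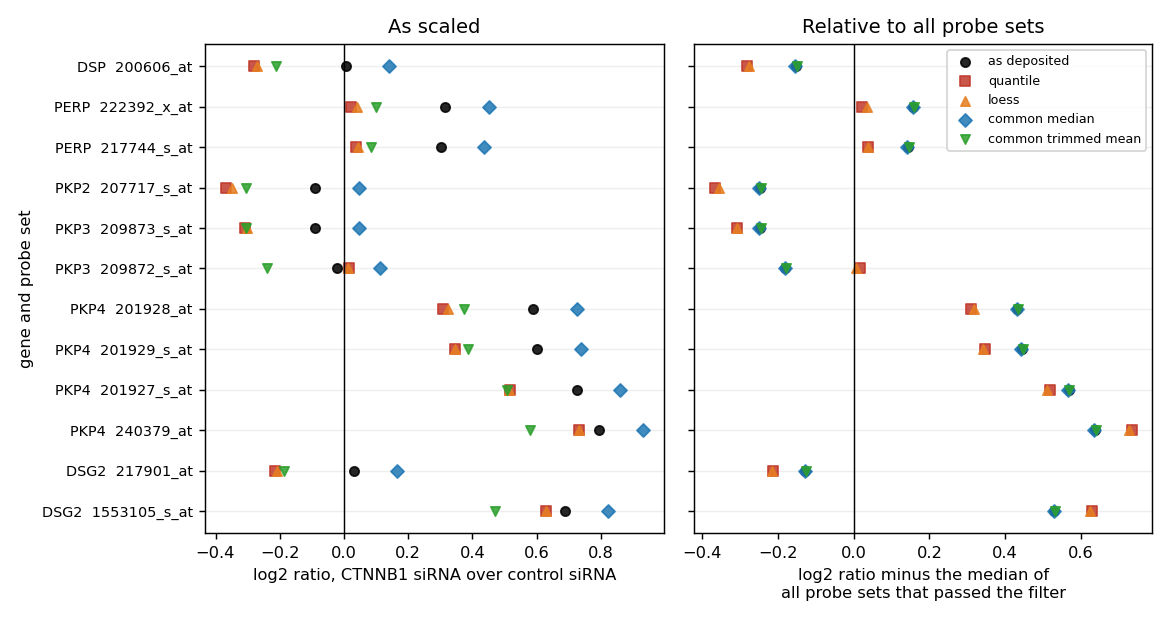
Log2 ratio (CTNNB1 siRNA over control siRNA) of the 12 entering desmosome probe sets under the deposited scaling and 4 others, as scaled (left) and minus the median of all entering probe sets under the same scaling (right); each point is 1 pair of arrays. The PKP4 points stay right of 0 in both panels, whereas DSP and the bright probe sets of PKP2, PKP3 and DSG2 lie left of 0 in the right panel under all 5.

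The deposited columns share no common level, so the sign of small ratios depends on the scaling. The median of all entering probe sets was 0.16 as deposited, 0.30 with a common median, -0.06 with a common trimmed mean, 0.01 after loess and -0.00 after quantile normalization. Relative to these medians, DSP lay between -0.28 and -0.15 and the brightest PKP2 probe set between -0.37 and -0.24 in every scaling. The 4 PKP4 probe sets lay between 0.31 and 0.73 above the median in every scaling. The brightest PERP probe set lay between 0.02 and 0.16 above it. Among the 6 entering genes, the order by brightest probe set therefore had PKP4 at the top and PERP next under the deposited and the other 4 scalings, and the differences among DSP, DSG2, PKP2 and PKP3 were smaller than the probe set SD.

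Of 7 other structural genes of the desmosome 3 entered, with a median log2 ratio of 0.05. None of the 3 was past 2-fold, which with 2.29% and 2.38% of all entering genes past it says little about them. JUP, which encodes plakoglobin, the close relative of beta-catenin, read 562 with CTNNB1 siRNA and 630 with control siRNA, a log2 ratio of -0.17. PPL and EVPL encode periplakin and envoplakin, plakins of the cornified envelope and desmosome. PPL read 1796 and 1729, and EVPL read 203 and 168. DSG1 (2.9 and 2.4), DSG4 (4.9 and 3.3) and DSC1 (1.4 and 2.8) were below the floor on both arrays. CDSN, corneodesmosin, had its brighter probe set at 9.5 and 20.3.

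**Figure D4:**
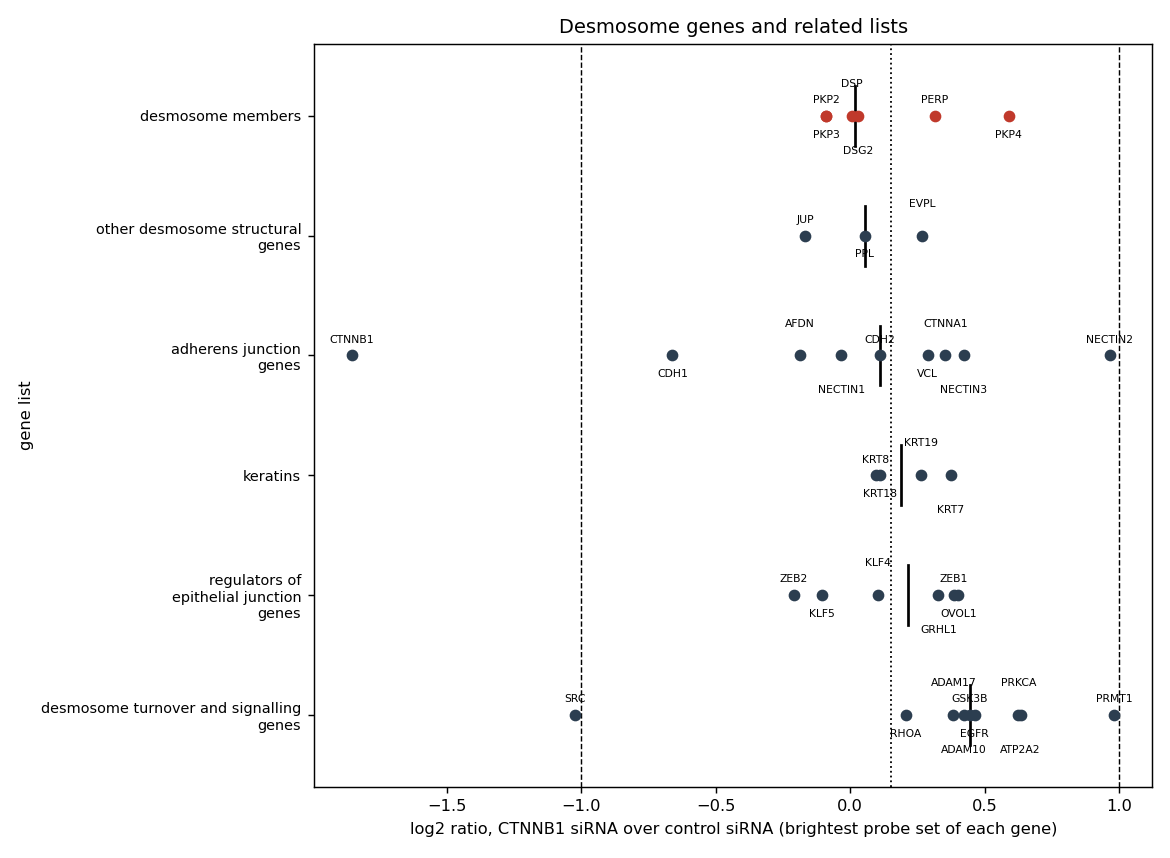
Log2 ratio (CTNNB1 siRNA over control siRNA) of the brightest entering probe set of each gene, by list; short bars are list medians, the dotted line is the median of all entering genes, 0.15, and dashed lines mark 2-fold. The 6 desmosome genes (red) lie between -0.09 and 0.59, and CTNNB1 and SRC are the points left of the lower dashed line.

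Adherens junction genes spread more widely. Of 12 listed, 11 were read by a probe set with 1 gene symbol and 9 entered. CTNNB1 itself was past 2-fold lower, 0 were past 2-fold higher and the median was 0.11. Of all entering genes, 2.29% were past 2-fold higher and 2.38% lower, so a count of 0 here or below says little. CDH1, encoding E-cadherin, read 594 with CTNNB1 siRNA and 939 with control siRNA, a log2 ratio of -0.66. NECTIN2 had the highest ratio, 0.97, on its brightest probe set (826 and 423), and its other entering probe sets ran from 0.04 to 0.73. With a common median NECTIN2 had 1.10. It had only 0.18 after quantile normalization, 0.18 after loess and 0.19 with a common trimmed mean, where another probe set was the brightest. NECTIN3 read 254 and 189, a log2 ratio of 0.42. Keratins form the filaments that desmosomes anchor. Of 12 listed, 9 were read by a probe set with 1 gene symbol, 4 entered and 0 were past 2-fold. The log2 ratios were 0.37 for KRT7, 0.26 for KRT19, 0.11 for KRT18 and 0.10 for KRT8. KRT18 and KRT8 were negative in 3 of 10 alternative settings. Of 15 regulators of epithelial junction genes, 13 were read by a probe set with 1 gene symbol. Of these 6 entered and 0 passed 2-fold, led by OVOL1 (0.40), ZEB1 (0.39) and GRHL1 (0.33). Probe sets of ZEB1 and GRHL1 disagreed in sign.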

How the data were processed

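The authors deposited 1 linear signal intensity per probe set and array, computed with MAS5 according to the submitters' processing notes. Its version and target intensity, any detection calls and a genome build were not given in the sources used here. Gene names came from the platform annotation of GEO. Of 54675 probe sets, 41097 had 1 gene symbol, 1801 several and 11777 were not listed, and 41043 symbols were matched to RefSeq names through their Entrez number. Members were matched on the platform symbol itself.

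From the deposited intensities, log2 ratios of CTNNB1 siRNA over control siRNA were computed without further scaling, after setting values under the floor to it, with Python 3.11.15, numpy 2.4.6 and pandas 2.3.3. The loess used statsmodels 0.14.6. With 1 array a group no test was possible, and a call means a difference of at least 2-fold. The number of arrays limits the precision. The calculation was tested on simulated arrays. These had the same noise at every signal and changes only in bright genes, so the test does not cover dim signals. The members and lists were chosen with earlier results of these data known. Named are all 10 members with every probe set, all other structural desmosome genes, and from each further list the genes past 2-fold and up to 3 more by absolute ratio. KRT8 and EGFR were added after their values were seen. Alternatives were 4 scalings, 2 floors, 2 filters, other ways to represent a gene, leaving out probe sets named _x_at or _s_at, and a 1.5-fold call. Planned comparisons of member proteins were not made here.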

Additional observations from a re-analysis of the deposited data

How the results depend on the processing

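At 2-fold, 0 desmosome probe sets and 0 of the 6 entering genes were called under each of the 4 other scalings, both other floors and the stricter filter. Such counts of 0 say little, since as deposited only 2.29% of all entering genes were past 2-fold higher and 2.38% lower. Without a filter all 28 probe sets counted, of which 1 was higher (DSG3, 4.62% of all probe sets) and 2 lower (DSC3, 6.14%), and by gene 1 was higher (3.65% of all genes) and 1 lower (6.43%). A 1.5-fold call gave 5 probe sets higher, 4 of them of PKP4, and 1 gene higher, none lower. Of all entering probe sets 14.4% were higher and 7.52% lower, and of all entering genes 11.2% and 7.61%. The median over the 6 genes was -0.25 after quantile normalization, -0.24 after loess and -0.20 with a common trimmed mean, which turned its sign from the 0.02 of the deposited values, while the median of all entering genes was -0.03, -0.03 and -0.07 there and 0.15 as deposited. The PKP4 gene value ran from 0.31 to 0.79 over 10 alternatives.

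In the other lists, the count of turnover genes past 2-fold lower (SRC, 1 as deposited) was 0 after quantile normalization, loess, a common median, the floor at the median or the 75th percentile filter. The count of turnover genes higher was 1 with a common median, without a filter or with a gene's median probe set, and 2 if the largest ratio stood for the gene, against 0 as deposited. Adherens junction genes had 1 higher with a common median, 2 lower without a filter and 0 lower with the median over probe sets. Without a filter, 1 keratin was higher and 1 lower and 1 regulator was lower. Of all genes, 3.65% were higher and 6.43% lower without a filter, and 2.29% and 2.38% of entering genes as deposited. Such shares were not computed for the other settings, so these counts only describe how the calls depend on the setting. With the probe set of largest ratio 1 regulator was lower.

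No paired analysis was possible because each group was 1 array. Leaving out an array leaves no comparison. Dim signals limit what can be said of PKP1, DSG3, DSC2 and DSC3, and the causes of these changes were not tested, except that without a filter more probe sets were counted.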

Other observations

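Genes known to act on desmosome turnover and signalling had a higher median ratio than the 6 entering desmosome genes (0.45 against 0.02). Of 10 such genes 9 entered. Their median log2 ratio was 0.30 above the median of all entering genes, and 8 of the 9 lay above that median. At 2-fold, by the brightest probe set, 0 were higher and 1 lower, beside 2.29% and 2.38% of all entering genes. EGFR had a log2 ratio of 0.46 on its brightest probe set, but its other entering probe sets ran from -0.00 to 1.59. PRMT1, an arginine methyltransferase, read 2740 with CTNNB1 siRNA and 1387 with control siRNA, a log2 ratio of 0.98. ATP2A2, the calcium pump of the endoplasmic reticulum, read 4738 and 3054 on its brightest probe set, a log2 ratio of 0.63, but its other entering probe sets gave 0.25 and -0.43. PRKCA, a protein kinase C, read 775 and 502 on its brightest, a log2 ratio of 0.63, and its other entering probe set gave 1.61. SRC, a tyrosine kinase, was the lower one, with 39.7 and 80.7 on its only entering probe set and a log2 ratio of -1.02. That probe set averaged 60.2, not far above the filter. Dimmer SRC probe sets disagreed in sign, with bounds of -1.48, -1.01 and 1.04. Relative to all entering genes, the list's median was between 0.21 and 0.44 in the 10 alternatives. The lists were chosen with earlier results of these data known, so this difference is a description only. No test of the difference between the lists was possible with 1 array a group.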
